A study of Rattus norvegicus with 12 samples.

Results

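Proteasome genes were followed in the insulin-secreting rat insulinoma line INS-1 832/3. The genes were taken by name: rows of the count table whose symbol starts with Psma, Psmb, Psmc, Psmd, Psme, Psmf or Psmg and a digit, without the immunoproteasome genes Psmb8, Psmb9 and Psmb10. This gave 46 of the 31368 rows. They are 8 genes of the alpha ring, 8 of the beta ring, 6 ATPases, 11 non-ATPase subunits, 5 activators or inhibitors, 7 assembly chaperones and Psmc3ip, which shares the name but encodes a protein of meiotic recombination. The labels give 4 groups of 3 biological replicates, all wild type. Urolithin B + IAPP cells were given 50 uM urolithin B, which gut bacteria make from plant ellagitannins, for 12 h. They were then given 2 uM islet amyloid polypeptide (IAPP), the peptide of islet amyloid in type 2 diabetes, for 24 h. IAPP cells had the peptide alone, urolithin B cells the metabolite alone, and control cells neither. RNA was read with a QuantSeq kit, which samples the 3prime end of polyadenylated transcripts, so 1 read stands for about 1 transcript and says little of its length. The cells are 1 clonal tumour line, and the species of the peptide and the later hours of the urolithin B cells are not given.

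The proteasome is the main protease of the cytosol and nucleus. Its barrel, the 20S core, is made of outer alpha rings, which form the gate, and inner beta rings, of which Psmb5, Psmb6 and Psmb7 carry the active sites. The 19S cap binds ubiquitin-tagged proteins, removes the tag and feeds the chain into the barrel with a ring of ATPases, the Psmc proteins. Beta cells make large amounts of a secreted protein, and a good part of what misfolds in the endoplasmic reticulum is returned to the cytosol and degraded by this machine. In mammalian cells proteasome genes are known to be raised together by the transcription factor Nfe2l1 (also NRF1) when proteasome activity is short.

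All 46 genes passed the filter on low counts that left 16814 genes for testing. Some of them were counted rarely, so that counting error limits them most: Psmd10 had 5 to 23 counts per library, Psmb11, a thymus gene, 9 to 20, and Psma8, a testis gene, 9 to 58. Library totals were 5224896 to 6681455 counts in urolithin B + IAPP, 4828003 to 5266959 in IAPP, 4927585 to 6583860 in urolithin B and 4893146 to 5422330 in control cells. The 4 libraries of replicate 1, 1 from each group, stood apart: mitochondrial rRNA took 6.52% to 8.83% of their counts, against 13.1% to 20.9% in the other 8. The replicate number therefore served as a block in a further fit, and its calls are named as such. Beta-cell markers were at 19400 to 33200 CPM in sum in the 12 libraries, with Iapp and Neurod1, 2 of the 12, listed at 0. CPM are counts scaled to a common library size, for these markers by the raw library total. The RefSeq annotation of GRCr8 lists 46 pseudogene symbols for 19 of the genes, among them 7 for Psmb3, 5 for Psma6, 4 for Psme3 and 3 for Psma7. None of these 46 symbols was a row of the table, and how reads that match several places were counted is not given in the sources used here, so the levels of these 19 genes are less certain.

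The region around the start of each gene was read from RefSeq (GRCr8; 250 bases before the start to 50 after) for the 41 of 46 genes that had an entry. Printed are the 4 with an entry among the 5 genes that the fit with the block called in any comparison, each 5′ to 3′ on the strand of the gene, so that the letters can be set beside the values of these genes. Capitals mark matches to CCGGAAG, the core of ETS sites, to CCAAT, the NF-Y box, and to TGACNNNGC, the core of the antioxidant response element that Nfe2l1 and Nfe2l2 share, on either strand. A match on the other strand reads CTTCCGG or ATTGG.
Psmb4: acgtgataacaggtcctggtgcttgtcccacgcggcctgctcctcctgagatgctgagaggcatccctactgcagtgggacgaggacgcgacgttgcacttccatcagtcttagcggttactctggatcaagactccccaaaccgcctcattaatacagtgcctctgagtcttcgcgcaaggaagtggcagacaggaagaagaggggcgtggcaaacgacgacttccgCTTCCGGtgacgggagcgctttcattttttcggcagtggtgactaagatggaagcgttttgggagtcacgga
Psme3: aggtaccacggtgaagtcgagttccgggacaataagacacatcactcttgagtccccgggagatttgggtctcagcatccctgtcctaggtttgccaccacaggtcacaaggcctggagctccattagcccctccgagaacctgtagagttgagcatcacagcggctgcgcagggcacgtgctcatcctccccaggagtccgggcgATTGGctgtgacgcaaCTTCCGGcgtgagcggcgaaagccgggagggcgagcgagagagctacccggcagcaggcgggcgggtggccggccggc
Psmc5: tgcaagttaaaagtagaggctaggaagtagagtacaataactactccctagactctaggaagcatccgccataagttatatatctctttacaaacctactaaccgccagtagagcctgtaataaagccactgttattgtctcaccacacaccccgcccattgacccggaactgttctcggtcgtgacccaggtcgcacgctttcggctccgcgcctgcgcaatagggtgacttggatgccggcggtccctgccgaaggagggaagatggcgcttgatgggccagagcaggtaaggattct
Psmd1: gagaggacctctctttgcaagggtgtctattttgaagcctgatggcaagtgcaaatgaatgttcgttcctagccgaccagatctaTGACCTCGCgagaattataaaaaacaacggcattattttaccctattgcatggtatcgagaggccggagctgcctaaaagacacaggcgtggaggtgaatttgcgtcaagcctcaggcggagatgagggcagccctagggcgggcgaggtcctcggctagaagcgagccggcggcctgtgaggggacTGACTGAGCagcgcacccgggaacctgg
These lie at chr2:185134512-185134811 on the minus strand (Psmb4), chr10:86757683-86757982 on the plus strand (Psme3), chr10:91687303-91687602 on the plus strand (Psmc5) and chr9:94157721-94158020 on the plus strand (Psmd1). Psmb4 and Psme3 each hold an ETS core shortly before the start, beginning 22 and 28 bases upstream, and Psme3 a CCAAT box at 44 bases upstream. Psmd1 holds 2 antioxidant cores, and Psmc5 none of these letters. Over the 41 genes, CCGGAAG was found in 16 (39%), against 8.75% of all 33469 promoters and 10.7% of those of protein-coding genes, CCAAT in 20 (48.8%, against 37.5%), TGACNNNGC in 8 (19.5%, against 12.1%) and the palindromic box of nuclear respiratory factor 1, a factor other than Nfe2l1, in 1 (2.44%, against 0.852%). The promoters of the 41 genes had a median GC content of 57%, against 51.7% over all, which also moves such counts. A match is a string of letters and says nothing of whether a factor binds there.

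Proteasome genes took a smaller share of the counts in each group of treated cells than in control cells. Of all counts they held 0.514%, 0.418% and 0.442% in urolithin B + IAPP, 0.468%, 0.440% and 0.402% in IAPP, 0.498%, 0.460% and 0.486% in urolithin B, and 0.532%, 0.508% and 0.501% in control libraries, in the order of replicates 1, 2 and 3. The means were 0.458% ± 0.0501 in urolithin B + IAPP, 0.436% ± 0.0331 in IAPP, 0.481% ± 0.0195 in urolithin B and 0.514% ± 0.0161 in control cells (SD, n = 3 each). All IAPP and all urolithin B libraries lay below all control libraries, while the urolithin B + IAPP libraries overlapped with control. The group means of mitochondrial rRNA ran opposite to this share. They were 14.3% ± 6.85, 15.1% ± 6.39, 12.1% ± 2.84 and 11.6% ± 2.87 of counts in urolithin B + IAPP, IAPP, urolithin B and control cells. Without those rRNA rows the share was 0.534% ± 0.0159 in urolithin B + IAPP, 0.514% ± 0.0098 in IAPP, 0.548% ± 0.0147 in urolithin B and 0.582% ± 0.00269 in control cells, and all 9 treated libraries lay below the 3 control libraries. After TMM scaling, which sets the bulk of the genes level between libraries, the sums were closer: 4818 ± 479, 4471 ± 575, 4703 ± 356 and 4975 ± 480 CPM in the same order, with the groups overlapping. Replicate 1 had the lowest sum in every group. Within each replicate number every treated library still lay below control. For IAPP the sums were 3806, 4792 and 4813 CPM, against 4429, 5333 and 5162 CPM in control libraries. Fewer transcripts of these genes per cell and more RNA of other genes cannot be told apart in such shares.

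**Figure D1:**
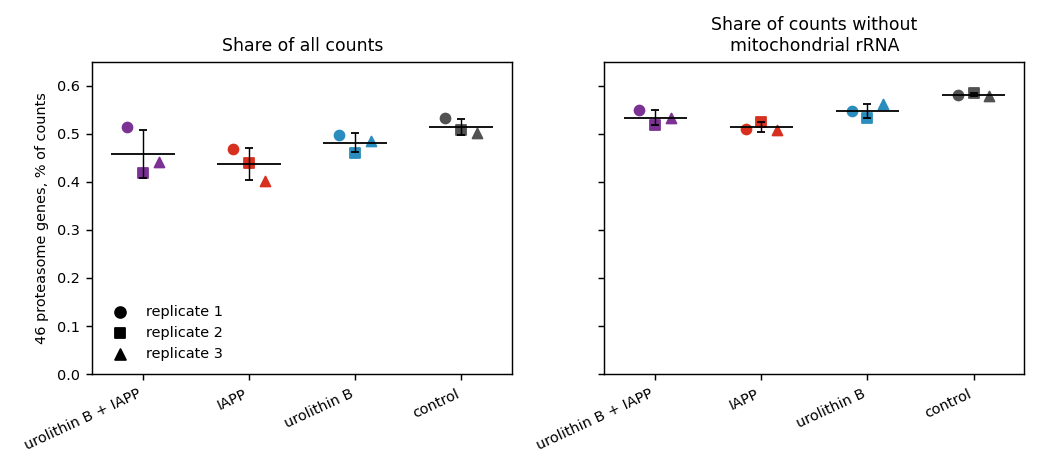
Share of counts in the 46 proteasome genes, in % of all counts (left) and of counts without mitochondrial rRNA (right), by library. Symbols are replicates and bars the mean ± SD (n = 3); on the right the 3 control libraries lie at 0.580% to 0.585% and the 9 treated ones at 0.508% to 0.563%.

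The first comparison asked what IAPP did to proteasome genes. The fold changes were small and mostly below 0. On the log2 scale, where 0 is no change, the median of the 46 genes was -0.14, against 0.05 over all 16814 genes, and 36 of 46 (78.3%) were negative, against 44.2% of all genes. No gene of the 46 passed the test (edgeR quasi-likelihood F-test, Benjamini-Hochberg adjusted p under 0.05), where 0.845% of all tested genes did. At an unadjusted p under 0.05 it was 6, or 13%, all of them lower: Psma7, Psmb1, Psmb4, Psmc3, Psme3 and Psmg2. Of all genes 10% were past that mark and 5.11% were past it and lower. With the replicate number as a block 3 of the 46 (6.52%) passed, all lower, against 7.83% of all genes in either direction and 4.04% lower. DESeq2 without the block called Psma7 and Psmc3, at adjusted p = 0.00101 and 0.0202. It called 4.44% of the 11248 genes to which it gave an adjusted p. In the IAPP libraries 9 genes (19.6%) were below every control library and 0 were above, against 7.54% and 7.74% of all genes. Those 9 were Psma7, Psmb1, Psmb4, Psmb7, Psmc3, Psmd3, Psmd8, Psme3 and Psmg2.

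The lower values were found in each replicate number. The median ratio of the IAPP library to the control library of the same number was -0.22 in replicate 1, -0.15 in replicate 2 and -0.08 in replicate 3, with 35, 37 and 32 of 46 genes negative. Over all genes these medians were 0.05, 0.00 and 0.00. Lower in all 3 pairs were 27 of 46 genes, against 19.5% of all genes, and higher in all 3 were Psma3, Psmc3ip, Psmd5 and Psme4, against 22.6%. Pairing by number rests on replicate 1. Same-numbered libraries of replicates 2 and 3 alone did not deviate together (r from -0.06 to 0.02), so their matching in these counts is not backed by the data. With IAPP replicate 1 left out and control replicate 1 kept, the median was -0.05 (27 negative), and over all genes -0.05. With replicate 1 left out of all groups it was -0.13, and 0.00 over all genes.

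In the alpha ring, which gates the barrel, the median was -0.15 and 5 of 8 genes were negative. Psma7, an alpha subunit, was the gene with the smallest p. It had 251, 259 and 261 CPM in IAPP libraries, against 339, 353 and 334 CPM in control libraries. The groups did not overlap and the 3 IAPP libraries lay close together. The log2 fold change was -0.41 ± 0.11 (SE; edgeR adjusted p = 0.146), and with the block Psma7 fell by 0.41 (adjusted p = 0.0115; 0.068 without replicate 1). Psma2, another alpha subunit, had 121, 159 and 152 CPM in IAPP and 153, 176 and 152 CPM in control cells, at -0.16 ± 0.15 (edgeR adjusted p = 0.914).

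In the beta ring the median was -0.20 and 6 of 8 genes were negative. The 3 genes with active sites did not stand alike. Psmb5, the chymotrypsin-like subunit, had 51.0, 60.4 and 61.0 CPM in IAPP and 57.9, 66.2 and 56.2 CPM in control libraries, which overlapped (-0.07 ± 0.15). Psmb6, the caspase-like one, had 66.1, 79.6 and 77.1 CPM in IAPP and 70.6, 102 and 114 CPM in control libraries (-0.37 ± 0.18, edgeR adjusted p = 0.546). Replicate 1 was the lowest for Psmb6 in every group, by the most in control cells. In replicates 2 and 3 alone, with the block, Psmb6 fell by 0.47 (adjusted p = 0.0339), the only 1 of the 46 genes called. Of the 14715 genes tested there, 5.27% were called. Psmb7, the trypsin-like subunit, had 88.1, 91.1 and 93.3 CPM in IAPP, below the 107, 119 and 113 CPM of control libraries (-0.31 ± 0.15, edgeR adjusted p = 0.504). Whether the 3 differed from each other in their change was not tested. Of the structural subunits, Psmb1 had 137, 155 and 127 CPM in IAPP and 166, 178 and 161 CPM in control libraries (-0.27 ± 0.11, edgeR adjusted p = 0.417). Psmb4 had 174, 206 and 210 CPM in IAPP and 223, 251 and 247 CPM in control libraries (-0.29 ± 0.12, adjusted p = 0.446, and 0.0815 with the block). Both lay below control in every library.

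All 6 ATPases of the 19S base were negative, with a median of -0.27. Psmc5, the Rpt6 subunit, had 54.7, 81.8 and 78.3 CPM in IAPP and 77.2, 104 and 91.7 CPM in control libraries. The groups overlapped because replicate 1 was low in both, and within each number the IAPP library was lower. The log2 fold change was -0.35 ± 0.22 (edgeR adjusted p = 0.717), and with the block Psmc5 fell by 0.36 (± 0.11, adjusted p = 0.0377; -0.29 and 0.247 without replicate 1). Psmc3, the Rpt5 subunit, had 109.8, 126 and 114 CPM in IAPP, below the 135, 147 and 144 CPM of control libraries (-0.28 ± 0.10, edgeR adjusted p = 0.261, and 0.0693 with the block). Psmc1, the Rpt2 subunit, was at -0.25 ± 0.13 (edgeR adjusted p = 0.62).

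All 11 non-ATPase subunits of the cap were negative too, between -0.32 and -0.06 with a median of -0.16. Psmd1, the large scaffold subunit Rpn2, was the lowest. It had 104, 165 and 155 CPM in IAPP and 153, 193 and 183 CPM in control libraries, again lower within each number with replicate 1 low in both groups. The change was -0.32 ± 0.20 (edgeR adjusted p = 0.708), and with the block Psmd1 fell by 0.34 (± 0.10, adjusted p = 0.037; -0.23 and 0.312 without replicate 1). Psmd3, a subunit of the lid, had 210, 201 and 184 CPM in IAPP, below the 221, 257 and 221 CPM of control libraries (-0.23 ± 0.13, edgeR adjusted p = 0.649). The ubiquitin receptors Psmd2 and Psmd4 were at -0.10 ± 0.20 and -0.22 ± 0.14, and the deubiquitinase Psmd14 at -0.10 ± 0.22, none past the test.

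The activators differed in sign. Psme3, the nuclear activator PA28gamma, had 43.0, 39.9 and 45.7 CPM in IAPP, all below the 53.1, 54.6 and 53.2 CPM of control libraries (-0.32 ± 0.09, edgeR adjusted p = 0.175, and 0.0681 with the block). Psme4, the nuclear activator PA200, had 250.3, 349.9 and 346 CPM in IAPP and 236, 310.3 and 318 CPM in control libraries (0.13 ± 0.19, edgeR adjusted p = 0.998). Psme1 and Psme2, the interferon-induced pair, were counted less often, at 27 to 74 counts per IAPP library, and were at 0.09 ± 0.40 and -0.05 ± 0.33. Of the 7 assembly chaperones 5 were negative. Psmg2, which starts the alpha ring together with Psmg1, had 33.6, 31.6 and 32.1 CPM in IAPP, below the 40.8, 39.7 and 41.0 CPM of control libraries (-0.32 ± 0.11, edgeR adjusted p = 0.242, and 0.0971 with the block). Psmd10, a chaperone of the base also called gankyrin, had the most negative value, -0.92 ± 0.58 (edgeR adjusted p = 0.721), on 6, 5 and 9 counts in IAPP against 23, 9 and 12 counts in control libraries. The highest was Psmc3ip, the gene that is no subunit, with 10.1, 11.3 and 12.1 CPM in IAPP and 8.80, 6.97 and 11.2 CPM in control libraries (0.31 ± 0.22, edgeR adjusted p = 0.789).

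**Figure D2:**
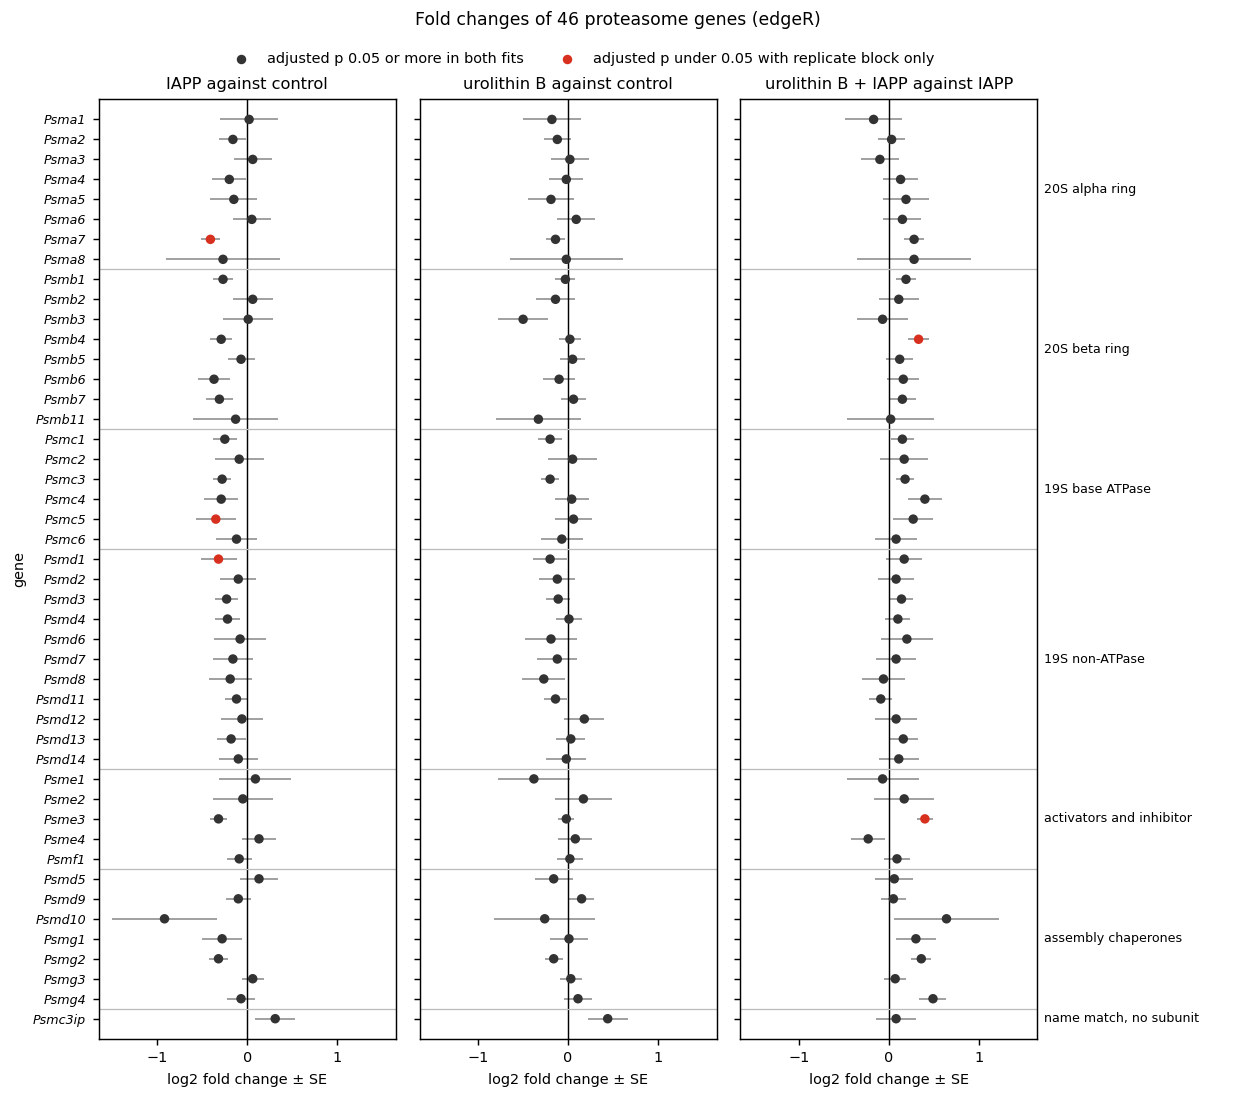
Log2 fold changes ± SE of the 46 genes in 3 comparisons, by role; red marks an adjusted p under 0.05 with the replicate block only. The medians are -0.14 on the left, -0.03 in the middle and 0.14 on the right; left and right share the IAPP libraries, left and middle the control libraries.

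Urolithin B alone was set against control to ask for its own effect. The 46 genes had a median of -0.03, and all genes -0.01, with 27 of 46 (58.7%) and 51.2% negative. No gene of the 46 passed edgeR (0% of all genes did), 0 had an unadjusted p under 0.05 (0.898% of all genes), and DESeq2 and the block called 0 of the 46 as well (0% and 0.00595% of all genes). Psmc3 and Psmg2 (4.35% of the 46) were below every control library, against 2.27% of all genes. Psmc3 had 122, 121 and 129 CPM in urolithin B and 135, 147 and 144 CPM in control libraries (-0.20 ± 0.10, edgeR adjusted p = 1).

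The most negative value of this comparison rested on 1 library. Psmb3, a structural beta subunit, had 157, 78.2 and 224 CPM in urolithin B and 191, 234 and 226 CPM in control libraries (-0.50 ± 0.28, edgeR adjusted p = 1). Its value was -0.19 without urolithin B replicate 2 and -0.89 without urolithin B replicate 3. Replicate 2 of the urolithin B cells differed from replicate 3 more than in the other groups. Over the 40 genes with at least 100 counts on average, the SD of the log2 ratio of replicate 2 to replicate 3 was 0.40 in urolithin B, against 0.13 in urolithin B + IAPP, 0.18 in IAPP and 0.14 in control cells. Over all 7694 such genes it was 0.34, against 0.18, 0.20 and 0.21, so this spread was not limited to proteasome genes. The ratio was beyond 0.5 in size for Psmb3 (-1.51), Psmd8, Psmb2, Psmd6 and Psmb7 (0.52) in urolithin B cells and for Psmd6 (-0.58) in IAPP cells.

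**Figure D3:**
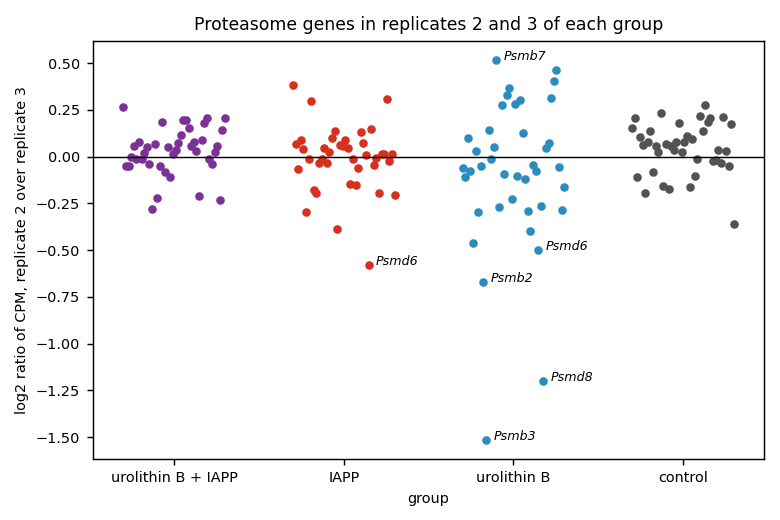
Log2 ratio of CPM in replicate 2 to replicate 3 within each group, for the 40 genes with at least 100 counts on average (1 point per gene; names beyond 0.5 in size). The points spread most in urolithin B cells, with an SD of 0.40 and Psmb3 at -1.51, against SDs of 0.13 to 0.18 in the other 3 groups.

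The next comparison asked whether cells given urolithin B before IAPP differed from cells given IAPP alone. The 46 genes had a median of 0.14, against -0.02 over all genes, and 39 were positive (15.2% negative, against 52.1% of all genes). No gene of the 46 passed edgeR's test without the block, where 0.577% of all genes did. At an unadjusted p under 0.05 there were 5 (10.9%), all higher, namely Psma7, Psmb4, Psme3, Psmg2 and Psmg4, against 8.5% of all genes in either direction and 4.06% higher. With the block 2 of 46 (4.35%) passed, Psmb4 and Psme3, both higher, against 5.24% of all genes and 2.51% higher. DESeq2 called Psme3 alone, where it called 3.01% of the 10601 genes to which it gave an adjusted p. In the urolithin B + IAPP libraries 7 genes (15.2%) were above every IAPP library, against 6.58% of all genes, and Psmd11 was below, against 6.84%. This comparison and that of IAPP with control share the 3 IAPP libraries, so a low value in those libraries enters both with opposite sign.

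Within replicates 1, 2 and 3 the median ratio of the urolithin B + IAPP to the IAPP library was 0.16, 0.11 and 0.12, with 37, 35 and 31 of 46 genes positive, and -0.03, 0.00 and 0.01 over all genes. Higher in all 3 pairs were 22 genes and lower in all 3 were Psma1, Psma3, Psmd11 and Psme4, where 21% of all genes were higher and 21% lower. The limit on pairing by number given for IAPP against control holds for these counts too. Without IAPP replicate 1 the median was 0.01 (24 positive) and over all genes 0.06. Without replicate 1 in any group it was 0.11 (37 positive), and 0.00 over all genes.

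By role, the medians were 0.14 in the alpha ring (6 of 8 positive), 0.13 in the beta ring (7 of 8), 0.18 in the ATPases (6 of 6), 0.10 in the non-ATPases (9 of 11), 0.09 in the activators and the inhibitor (3 of 5) and 0.30 in the assembly chaperones (7 of 7). Psme3 had 55.3, 57.1 and 57.6 CPM in urolithin B + IAPP, against 43.0, 39.9 and 45.7 CPM in IAPP libraries. The groups did not overlap and lay well apart. The log2 fold change was 0.40 ± 0.09 (edgeR adjusted p = 0.12; DESeq2 adjusted p = 0.0162), and with the block Psme3 rose by 0.40 (adjusted p = 0.0268; 0.134 without replicate 1). Psmb4 had 258, 239.8 and 247 CPM in urolithin B + IAPP, against 174, 206 and 210 CPM in IAPP libraries. The difference was greatest in replicate 1. The change of Psmb4 was 0.33 ± 0.12 (edgeR adjusted p = 0.439), and with the block it rose by 0.34 (adjusted p = 0.0473; 0.21 and 0.391 without replicate 1).

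The chaperones Psmg2 and Psmg4 were higher in every library without passing either fit. Psmg2 had 41.6, 38.2 and 45.0 CPM in urolithin B + IAPP and 33.6, 31.6 and 32.1 CPM in IAPP libraries (0.36 ± 0.11, edgeR adjusted p = 0.245, and 0.0705 with the block). Psmg4, which pairs with Psmg3 under the alpha ring, had 25.7, 31.3 and 27.0 CPM in urolithin B + IAPP and 19.4, 18.7 and 21.6 CPM in IAPP libraries (0.49 ± 0.15, edgeR adjusted p = 0.286, and 0.0581 with the block). Unlike Psmg2, Psmg4 had overlapping levels in IAPP and control libraries, with control at 22.4, 17.6 and 22.7 CPM (-0.07 ± 0.16). Psma7 had 278, 338 and 321 CPM in urolithin B + IAPP, above all 3 IAPP libraries (0.28 ± 0.11, edgeR adjusted p = 0.504). The genes called in IAPP against control with the block were at 0.27 ± 0.22 (Psmc5) and 0.17 ± 0.20 (Psmd1) here. Psme4 was at -0.23 ± 0.19 (edgeR adjusted p = 0.937), and with urolithin B + IAPP below IAPP in each number.

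**Figure D4:**
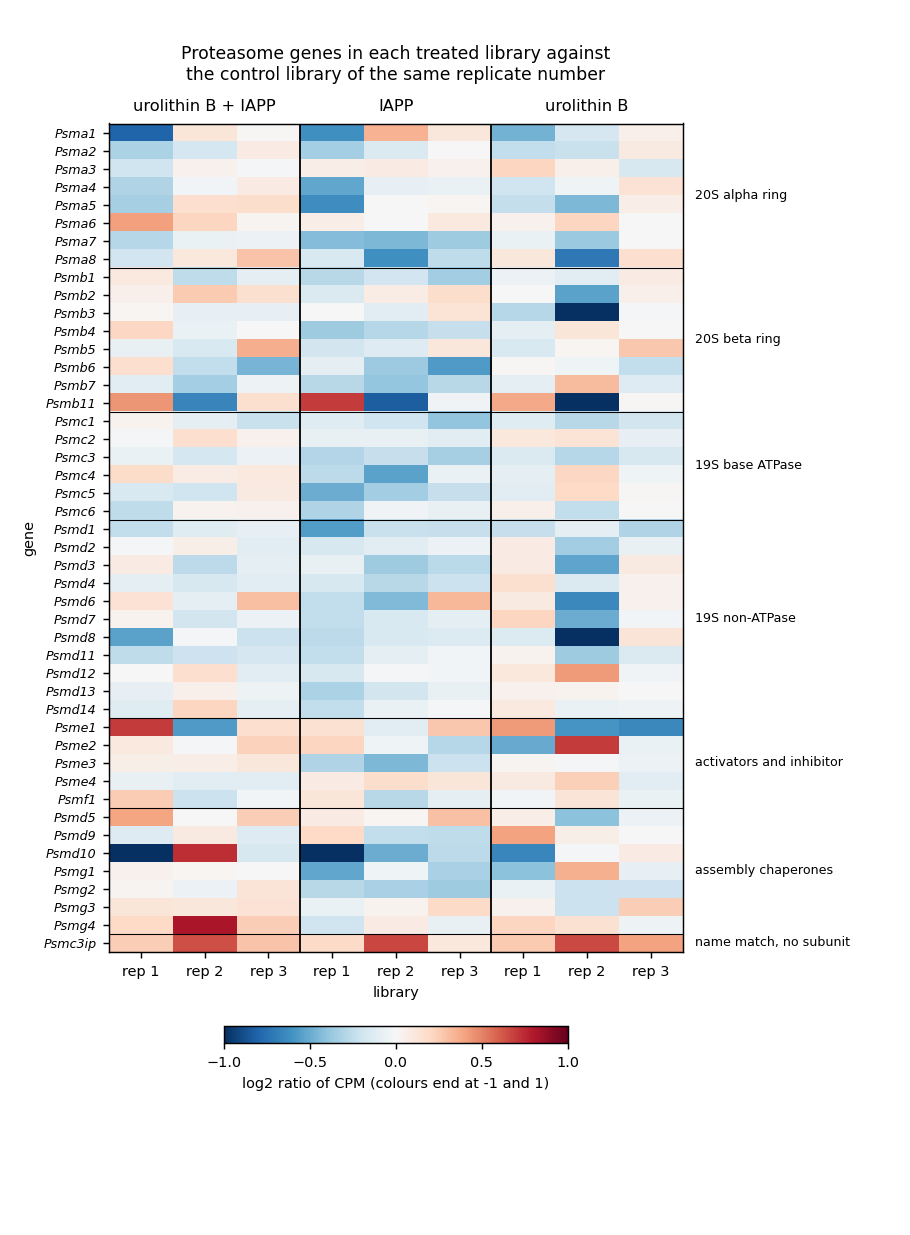
Log2 ratio of CPM in each treated library to the control library of the same replicate number, for the 46 genes by role. Blue is lower than control; the IAPP columns hold 35, 37 and 32 genes below control in replicates 1, 2 and 3, and the urolithin B + IAPP columns 23, 26 and 24.

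**Figure D5:**
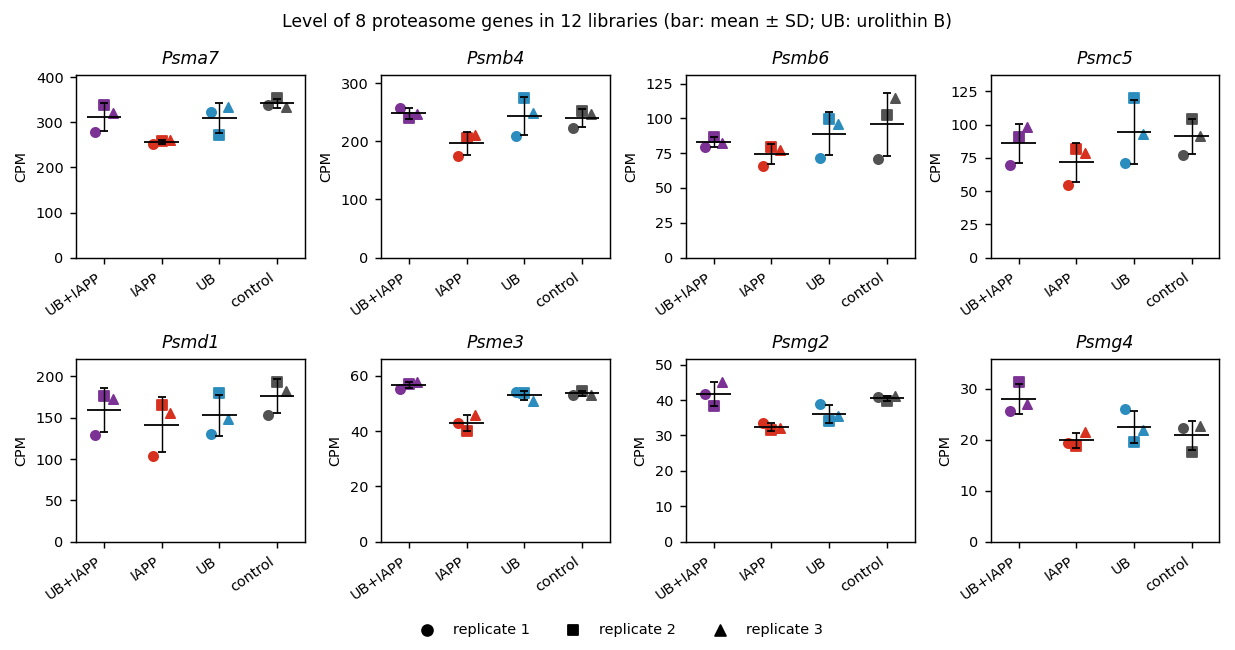
CPM of 8 genes in the 12 libraries, with mean ± SD (n = 3) per group and a symbol per replicate number. The IAPP libraries of Psma7, Psmb4, Psme3 and Psmg2 lie below all control and all urolithin B + IAPP libraries, while replicate 1 is low in every group for Psmc5 and Psmd1.

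By fold change after TMM scaling, urolithin B + IAPP cells were close to control cells. As a share of counts without mitochondrial rRNA the 46 genes were lower, at 0.534% ± 0.0159 against 0.582% ± 0.00269 (SD, n = 3 each). The groups did not overlap in that share. The median log2 fold change was -0.03, and 0.02 over all genes, with 25 of 46 negative. At an unadjusted p under 0.05 there was 1, Psmg4 (0.42 ± 0.15, edgeR adjusted p = 1, and 0.413 with the block), against 2.44% of all genes. Psme3 and Psmg4 were above every control library and Psmd8 and Psmd11 below, 8.7% of the 46 in either direction, against 7.4% of all genes. No gene of the 46 was called by edgeR, DESeq2 or with the block (0%, 0.0239% and 0.0714% of all genes). Against urolithin B alone the median was 0.02, as over all genes, with 0 of the 46 past edgeR, DESeq2 or the block (0%, 0% and 0.0119% of all genes) or an unadjusted p under 0.05 (1.67%). The direct test of whether urolithin B changed the response to IAPP is the interaction, the difference between the IAPP effect with and without urolithin B. Its median was 0.21, and 0.00 in size over all genes, with 41 of 46 positive (10.9% negative, against 50.5% of all genes). No gene of the 46 passed in edgeR, with the block or in DESeq2. Of the genes with an adjusted p, 0.0297%, 1.63% and 0.925% did (of 16814, 16814 and 12210 genes). At an unadjusted p under 0.05 there were 4 (8.7%, against 5.4% of all genes), all positive: Psmg2 at 0.52 ± 0.15 (edgeR adjusted p = 0.458), Psme3 at 0.42 ± 0.13 (0.628), Psmc3 at 0.38 ± 0.13 (0.715) and Psma7 at 0.42 ± 0.16 (0.778). With the block their adjusted p was 0.107, 0.186, 0.17 and 0.16. A difference between the IAPP effects was thus not shown for any single proteasome gene with 3 libraries per group.

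Genes around the proteasome were read from lists drawn up for this purpose, and none of their members passed edgeR without the block in any comparison. Nfe2l1, which drives proteasome genes, had 191, 191 and 194 CPM in urolithin B + IAPP, 170, 156 and 153 CPM in IAPP, 216, 196 and 236 CPM in urolithin B, and 189.8, 233 and 219 CPM in control libraries. All 3 IAPP libraries lay below all others. Nfe2l1 was at -0.42 ± 0.11 in IAPP against control (edgeR adjusted p = 0.128) and fell with the block (adjusted p = 0.0112). In urolithin B + IAPP against IAPP it was at 0.27 ± 0.11 (adjusted p = 0.534, and 0.156 with the block). Its relative Nfe2l2, the regulator of the response to oxidants, had 33.1, 40.7 and 37.6 CPM in urolithin B + IAPP, 57.0, 71.0 and 65.5 CPM in IAPP, 39.1, 30.2 and 28.3 CPM in urolithin B, and 26.9, 36.2 and 45.2 CPM in control libraries. With the block it rose in IAPP against control (0.84 ± 0.19 without the block, edgeR adjusted p = 0.0747, and 0.000472 with it) and fell in urolithin B + IAPP against IAPP (-0.80 ± 0.19, adjusted p = 0.126, and 0.00115 with the block).

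Of the 15 regulators tested, the block called 4 higher in IAPP against control, Nfe2l2, Ngly1 (the glycanase that activates Nfe2l1), Foxo3 and Nfyb, and Nfe2l1 lower, where 3.78% of all genes were called higher and 4.04% lower. In urolithin B + IAPP against IAPP it called 3 lower, Nfe2l2, Foxo3 and Nfya, and 0 higher, where 2.73% of all genes were called lower and 2.51% higher. Among genes of ubiquitin supply and delivery, Rps27a, which makes ubiquitin fused to a ribosomal protein, fell with the block in IAPP against control (-0.64 ± 0.13, edgeR adjusted p = 0.055, and 0.000111 with the block). Rps27a is less certain because such genes have many near-identical copies. The shuttle Rad23b fell with the block too (-0.46 ± 0.11, edgeR adjusted p = 0.0924, and 0.00287 with the block). Of 8 subunits and factors whose names fall outside the rule, among them Adrm1, Pomp and Usp14, 0 passed edgeR (0.845% and 0.577% of all genes) or the block (7.83% and 5.24%) in either comparison, with a median of -0.13 for IAPP over control and 0.07 for urolithin B + IAPP over IAPP. Of the immunoproteasome genes, Psmb8 and Psmb9 were scarce, while Psmb10 had 98 to 222 counts per library. Psmb8 had 0 to 6 counts and was not tested, Psmb9 had 19, 7 and 9 counts in IAPP and 6, 6 and 6 counts in control libraries (0.99 ± 0.70, edgeR adjusted p = 0.789), and Psmb10 was at -0.26 ± 0.15 (adjusted p = 0.673).

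Set against the letters in their promoters, the median log2 fold change of proteasome genes in IAPP against control was -0.17 in the 16 genes with CCGGAAG and -0.15 in the 25 without, and for TGACNNNGC -0.09 in the 8 with it and -0.16 in the 33 without. For urolithin B + IAPP over IAPP it was 0.15 in the genes with CCGGAAG and 0.13 in those without. For TGACNNNGC it was 0.11 with it and 0.15 without. With CCAAT the median in IAPP against control was -0.16 in 20 genes, and -0.12 in the 21 without. In urolithin B + IAPP over IAPP it was 0.11 with CCAAT and 0.16 without. None of these splits was tested.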

How the data were processed

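RNA of the 12 cell samples was turned into QuantSeq 3prime FWD libraries, per the labels' protocols, and FastQC, Bowtie2 and SAMtools were used, per the submitters' processing notes. Their versions, the read counter, the annotation and the build are not named in these sources. The values are raw counts per gene, deposited as 1 table with 12 columns, all of them used. Counts were tested with edgeR 4.0.16 in R 4.3.3: TMM scaling, filterByExpr on the group, 1 quasi-likelihood fit of the 12 libraries together, with p adjusted by Benjamini-Hochberg over 16814 genes and called under 0.05. CPM are counts divided by the TMM-scaled library size, except for the beta-cell markers, where the raw library total was used. The labels name biological replicates but no separate cultures, so p-values reflect how these libraries vary, perhaps for technical reasons only. No pair of libraries within a group agreed within sampling noise (chi-square per degree of freedom at least 3.71).

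Libraries with the same replicate number deviated together from their group means (r from 0.44 to 0.89 over 18 pairs). Replicates 2 and 3 alone gave r from -0.06 to 0.02 over 12 pairs, so the pairing rests on replicate 1. Those 12 pairs are not independent, since replicates 2 and 3 mirror each other around their mean. The median biological coefficient of variation of the 46 genes was 0.173 without the replicate block and 0.089 with it. Alternatives were the block, library size alone, RLE factors, no filter, a filter of 5 CPM in 3 libraries, DESeq2 1.42.0, fits of the compared groups alone, replicates 2 and 3 alone, and each library left out. Genes were named with values where a fit called them, where their p was among the smallest, and for the active-site subunits, 19 in all, with further genes named as examples of their role, all chosen with earlier results of these data known, as were the genes and lists. The code was tested on simulated data. Shares of genes given for DESeq2 are of those to which it gave an adjusted p, 10601 to 16725 by comparison. Some genes of the ubiquitin list are not reported here. Genes are named as the table gives them; Sem1 is listed there as Shfm1, and Paaf1, Ecpas and Ufd1 were not found under these names.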

Additional observations from a re-analysis of the deposited data

How the results depend on the processing

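Without the block, 0 of the 46 genes passed edgeR in any of the 6 comparisons, and the same held under each scaling and filter tried and with each of the 12 libraries left out (lowest 0, highest 0). The count for IAPP against control was 3 with the replicate block, 1 in replicates 2 and 3 alone with the block, and 2 in DESeq2. For urolithin B + IAPP against IAPP it was 2 with the block and 1 in DESeq2. The block changed no call in the other comparisons. All other counts stayed at 0.

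With each library left out, the median fold change ran from -0.25 to -0.05 in IAPP against control, -0.11 to 0.02 in urolithin B against control, 0.01 to 0.23 in urolithin B + IAPP against IAPP, -0.12 to 0.07 in urolithin B + IAPP against control, -0.06 to 0.13 in urolithin B + IAPP against urolithin B and 0.06 to 0.34 in the interaction. With library size alone in place of TMM, the median was -0.23 in IAPP against control and 0.09 in urolithin B + IAPP against IAPP. It was -0.16 in urolithin B + IAPP against control, where the median of all genes shifted to -0.09 as well, and -0.09 in urolithin B + IAPP against urolithin B, where its sign turned.

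The share of counts was 0.534%, 0.514%, 0.548% and 0.582% without mitochondrial rRNA in urolithin B + IAPP, IAPP, urolithin B and control cells, and 0.497% in control cells by TMM-scaled totals. With 1 library left out it ran from 0.43% to 0.478%, 0.421% to 0.454%, 0.473% to 0.492% and 0.505% to 0.52%.

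Signs turned for some genes, none of them called in the comparison concerned, and the cause was not tested. In IAPP against control, Psmb3 (0.01) was at -0.06 with library size alone and at -0.09 to 0.10 with 1 library left out, Psmb5 (-0.07) at -0.12 to 0.01 with 1 left out, and Psmg4 (-0.07) at 0.00 in replicates 2 and 3 alone. In urolithin B + IAPP against IAPP, leaving out 1 library gave -0.01 to 0.33 for Psmd1 (0.17 with all 12), -0.04 to 0.18 for Psmc3ip, -0.16 to 0.04 for Psmb3, -0.09 to 0.16 for Psma2 and -0.00 to 0.22 for Psmb5. Psma2 was also at -0.02 with library size alone. Without the block, the median SE of the 46 genes was 0.20 in IAPP against control, which limits what can be told of a change of that size in 1 gene.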
